A study of Mus musculus with 7 samples.

Results

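The adipocyte genes described here were Adipoq, Car3, Cfd, Plin1, Cidec, Retn, Lpl, Scd1, Pparg and Lep, chosen by name as genes typical of fat cells. Of these 10 genes, 9 had a probe on the array, with 11 probes in all among the 25695 probes of the platform, and Cfd had none. The probes of 8 genes passed the detection filter (a detection p-value, the array's own test of signal against background, under 0.05 on at least 3 of the 7 arrays) and were tested among 9569 genes. Thymus RNA came from 3 RelB-/- mice and 4 RelB+/- mice, all aged 8 weeks, with 1 Illumina array for each mouse and all arrays on 1 chip. RelB is a subunit of NF-kB, and the comparison asks which thymic transcripts differ between mice lacking it and mice with a functional copy. The sample titles call the RelB+/- mice wild type, while the genotype label gives them 1 disrupted allele, so no mouse with an intact pair of alleles was measured. Neither the strain nor how the allele was disrupted was given in the sources used here. The labels name whole thymus as the tissue and do not mention fat.

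Fat tissue lies around the thymus and within its capsule and septa, and in the mouse it includes brown fat of the mediastinum as well as white fat. Adipocytes store triglyceride in lipid droplets coated by perilipins and CIDE proteins, take up fatty acids freed by lipoprotein lipase, and secrete hormones such as adiponectin and leptin. The nuclear receptor PPAR-gamma and the C/EBP factors are known to drive the expression of many of these genes.

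The bases just before the transcription start are shown for 4 of the genes, in windows that hold the C/EBP core named below. The transcripts of these 4 genes varied together across the mice, as did those of the other genes tested. The windows hold 250 bases each from RefSeq on build GRCm38.p6, written 5′ to 3′ in the direction of the gene, and 7 of the 10 genes had at least 1 window in that table. Capitals mark TTNNGNAA, the core of a C/EBP site, and CCAAT, each searched on both strands.
Adipoq, chr16:23146286-23146535, plus strand: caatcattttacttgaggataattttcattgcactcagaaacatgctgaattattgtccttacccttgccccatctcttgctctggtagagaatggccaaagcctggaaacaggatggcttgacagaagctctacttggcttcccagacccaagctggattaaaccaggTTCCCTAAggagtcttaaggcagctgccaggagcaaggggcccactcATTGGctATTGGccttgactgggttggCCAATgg
Plin1, chr7:79732777-79733026, minus strand: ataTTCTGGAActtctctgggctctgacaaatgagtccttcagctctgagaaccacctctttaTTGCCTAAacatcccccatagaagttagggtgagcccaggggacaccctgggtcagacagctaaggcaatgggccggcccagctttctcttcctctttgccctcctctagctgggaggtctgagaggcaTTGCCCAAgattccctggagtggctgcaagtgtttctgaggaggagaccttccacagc
Lep, chr6:29059971-29060220, plus strand: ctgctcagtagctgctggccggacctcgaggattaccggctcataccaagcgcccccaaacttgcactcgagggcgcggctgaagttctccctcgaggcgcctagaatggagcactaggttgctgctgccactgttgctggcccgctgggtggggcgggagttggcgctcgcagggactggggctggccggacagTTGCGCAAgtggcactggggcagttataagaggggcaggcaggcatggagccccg
Pparg, chr6:115421816-115422065, plus strand: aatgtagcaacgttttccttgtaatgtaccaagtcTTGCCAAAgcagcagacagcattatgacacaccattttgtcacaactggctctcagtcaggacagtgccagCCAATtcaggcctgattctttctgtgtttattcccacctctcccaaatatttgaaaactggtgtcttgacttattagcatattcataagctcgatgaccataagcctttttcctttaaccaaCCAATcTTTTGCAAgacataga
The C/EBP core was present in 6 of the 10 windows of the adipocyte genes, against 36.8% of all 32851 windows of the table. It was absent from the windows of Retn and Cfd and from the Pparg windows not shown. The nearest core lay 55 bases before the start in Lep and 16 bases before it in the Pparg window shown, 1 of 3 windows of that gene. The CCAAT box was present in 3 of 10 windows, against 33.8% of all. AGGTCA, the hexamer bound by nuclear receptors, was present in 2 of 10 windows against 14% of all, both of them in the other Pparg windows. A direct repeat of AGGTCA with 1 base between the copies was in 0 of 10 windows and in 0.0335% of all, and TATAAA in 1 of 10 against 12.4%. A match is a description of these letters and does not show a bound site.

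The Relb probe gave a detected signal in none of the 3 RelB-/- mice and in all 4 RelB+/- mice. Its level, the quantile-normalized log2 intensity used throughout, was 4.68, 4.39 and 4.31 on RelB-/- arrays 1 to 3, against 7.004, 7.12, 7.10 and 7.15 on RelB+/- arrays 1 to 4. The arrays had median raw intensities of 103.5 to 142.3, with 11785 to 12705 probes detected on each. Thymocyte genes such as Rag1 and Cd4 were detected on every array, 8 of 9 listed genes each time, which fits the labelled tissue. Genes of heart muscle stood out on RelB-/- 3, with 13 of 16 listed genes detected, and on RelB+/- 2, with 10 of 16, against 1 or 2 on each other array. The summed normalized signal of that list ran from 507.2 to 24050 over the RelB-/- arrays and from 466.6 to 8793 over the RelB+/- arrays. The probes of Xist, a transcript of female cells, were detected on RelB-/- 2 alone (raw signals 432 and 671, against 125 or less on the other 6 arrays). Eif2s3y, a gene of the Y chromosome, was at 4.34 on that array and between 6.60 and 7.63 on the others. The labels give no sex.

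No adipocyte gene was called as different between the genotypes, which with 3 and 4 mice does not show that the levels were equal. By limma's moderated test 0 of 8 genes were called at an adjusted p under 0.05, where 0.773% of all genes tested were called. At an unadjusted p under 0.05 there was 1, Car3, where 13.2% of all genes passed in either direction and 6.3% with a lower level in RelB-/- thymus. All 8 differences (RelB-/- minus RelB+/-) were negative, with a median of -0.59 on the log2 scale against 0.025 over all genes, but these genes varied together and were not independent of each other. In 0 of 8 genes did the genotype groups not overlap, against 13.6% of all genes. These genes were widely spread between mice of the same genotype, and the RelB-/- mice lay at both ends of that spread. Related lists shared the wide spread. The median SD within genotypes was 0.94 for these genes and 0.70 for other adipocyte genes. It was 1.54 for brown adipocyte genes and 2.76 for heart muscle genes, against 0.25 over all genes. RelB-/- 1 and RelB-/- 2 were the 2 lowest arrays for 7 of 8 adipocyte genes (8.3% of all genes had this order), while RelB-/- 3 was the highest array for 4. In whole-tissue RNA, fewer fat cells in the sample and less of a transcript per fat cell cannot be told apart.

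**Figure D1:**
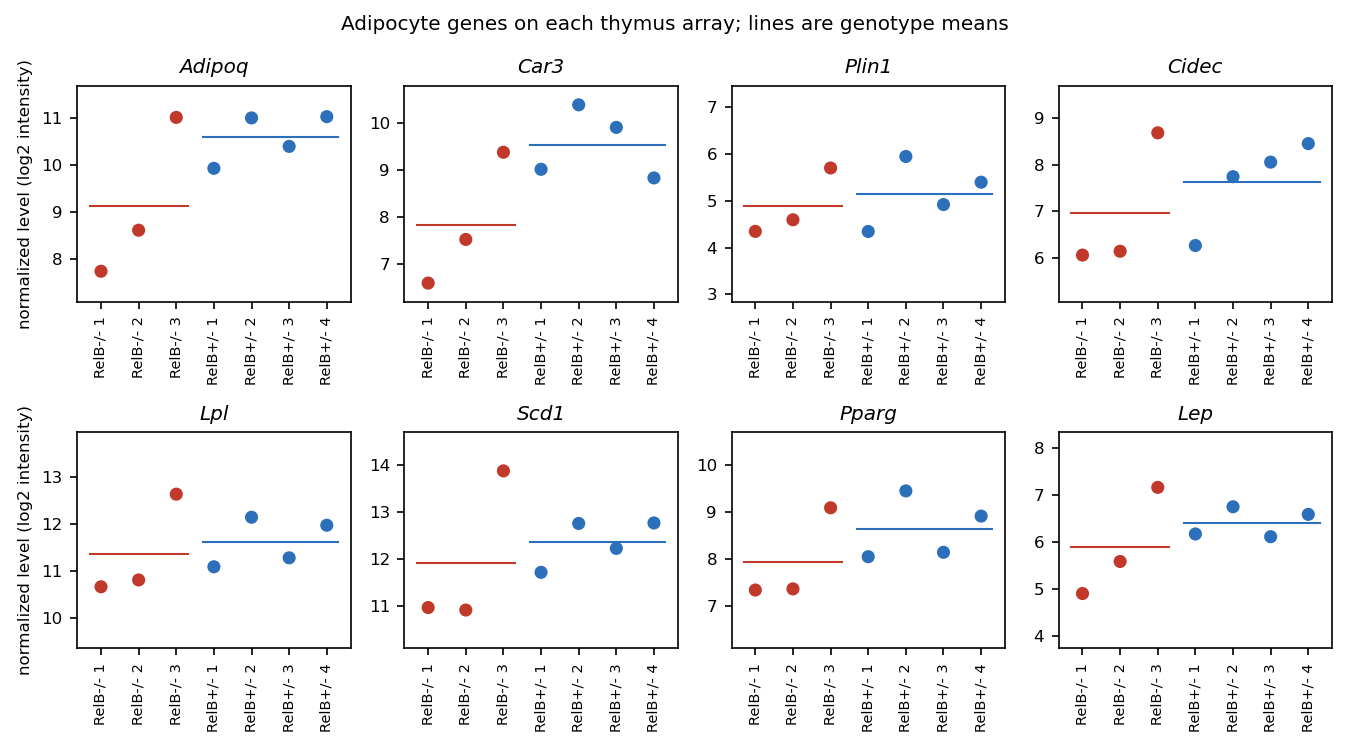
Normalized level (log2 intensity) of the 8 adipocyte genes that passed the detection filter, 1 point for each array, RelB-/- in red and RelB+/- in blue, with a line at each genotype mean and axes of equal length. RelB-/- 1 and RelB-/- 2 lie low in each panel, RelB-/- 3 lies high in each panel other than that of Car3, and the groups overlap for every gene.

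The secreted products come first. Adipoq encodes adiponectin, a hormone made almost only by fat cells that acts on insulin sensitivity. Its raw signal was 248, 491 and 2527 on RelB-/- arrays 1 to 3, against 1116, 1553, 1523 and 2725 on RelB+/- arrays 1 to 4. After normalization its level was 7.74, 8.61 and 11.02 in RelB-/- thymus, against 9.93, 11.01, 10.40 and 11.03 in RelB+/- thymus. The first 2 RelB-/- mice were below every RelB+/- mouse, and the third was nearly level with the highest RelB+/- mouse. RelB-/- mice averaged 9.12 ± 1.70 (SD, n = 3) and RelB+/- mice 10.59 ± 0.53 (SD, n = 4), a difference of -1.47 (SE 0.69, 95% interval -3.04 to 0.096, limma adjusted p = 0.405). Lep encodes leptin, the hormone that reports fat stores to the brain. Its level was 4.90, 5.58 and 7.16 in RelB-/- thymus, against 6.17, 6.75, 6.11 and 6.59 in RelB+/- thymus. The lowest and the highest of the 7 arrays were thus both RelB-/-, and RelB-/- 1 was the only array on which Lep was not detected. The difference was -0.52 (SE 0.47, 95% interval -1.59 to 0.55, limma adjusted p = 0.640).

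Retn, which encodes the mouse adipocyte hormone resistin, was detected on 0 of 7 arrays. Its raw signal was 104, 129 and 134 in RelB-/- thymus, against 105, 93.3, 102 and 133 in RelB+/- thymus. These values were not well above background, so the probe gave no order of the samples and Retn was not tested. Cfd, which encodes adipsin, a complement protease secreted by fat, was not analysed here because it had no probe.

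Pparg encodes the nuclear receptor PPAR-gamma, which is required for adipocyte formation. It had 3 probes, and 1 of them (ILMN_1221060) was detected on all 7 arrays. Its level was 7.34, 7.36 and 9.09 in RelB-/- thymus, against 8.05, 9.45, 8.14 and 8.91 in RelB+/- thymus. The RelB-/- group again held the 2 lowest arrays together with the second highest. The difference was -0.71 (SE 0.49, 95% interval -1.84 to 0.42, limma adjusted p = 0.555). The other 2 probes of Pparg were detected on 0 of 7 arrays. Their raw signals lay between 95.2 and 130.4 in RelB-/- thymus and between 91.9 and 135.5 in RelB+/- thymus, so they neither repeat nor contradict the first.

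Plin1 and Cidec act at the lipid droplet. Plin1 encodes perilipin 1, which coats the droplet and controls access of lipases, and Cidec encodes a protein that fuses droplets into larger ones. Plin1 was dim, with detection on 1 of 3 RelB-/- and 3 of 4 RelB+/- arrays. Its level was 4.34, 4.59 and 5.70 in RelB-/- thymus, against 4.34, 5.94, 4.92 and 5.39 in RelB+/- thymus, a difference of -0.27 (SE 0.43, limma adjusted p = 0.806). RelB-/- 1, RelB-/- 2 and RelB+/- 1 had only background signal, so the order among them carries no information. Cidec was detected on all 7 arrays, at 6.07, 6.15 and 8.68 in RelB-/- thymus, against 6.27, 7.74, 8.05 and 8.45 in RelB+/- thymus. Both genotypes thus held mice at the low end and mice near the high end. The difference was -0.66 (SE 0.71, 95% interval -2.28 to 0.96, limma adjusted p = 0.702).

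Lpl and Scd1 are enzymes of lipid supply. Lpl encodes lipoprotein lipase, which frees fatty acids from circulating lipoproteins and is also made by heart muscle and macrophages. Its level was 10.66, 10.81 and 12.63 in RelB-/- thymus, against 11.09, 12.14, 11.28 and 11.97 in RelB+/- thymus, a difference of -0.25 (SE 0.49, limma adjusted p = 0.849). Scd1 encodes a desaturase that makes monounsaturated fatty acids and is also made in liver and sebaceous glands. Its level was 10.97, 10.92 and 13.88 in RelB-/- thymus, against 11.72, 12.76, 12.23 and 12.77 in RelB+/- thymus. Before normalization this was a raw signal of 18094 on RelB-/- 3 and of 8312 on the next array, RelB+/- 4. The difference for Scd1 was -0.45 (SE 0.68, 95% interval -2.004 to 1.11, limma adjusted p = 0.798). For both genes RelB-/- 3 was the highest array and the other RelB-/- mice the lowest, and the sign of the difference turned positive when either low mouse was left out (Lpl 0.10 without RelB-/- 1 and 0.028 without RelB-/- 2, Scd1 0.028 and 0.055).

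Car3, the cytosolic carbonic anhydrase 3, is abundant in fat and is also made in skeletal muscle and liver. Its level was 6.59, 7.52 and 9.38 in RelB-/- thymus, against 9.01, 10.39, 9.91 and 8.83 in RelB+/- thymus. Unlike Lpl and Scd1, it was lower on RelB-/- 3 than on RelB+/- 2 and RelB+/- 3, and RelB+/- 4 was the lowest of its group. Averages were 7.83 ± 1.42 for RelB-/- mice (SD, n = 3) and 9.53 ± 0.74 for RelB+/- mice (SD, n = 4). The difference of -1.71 (SE 0.64, limma adjusted p = 0.327, unadjusted p = 0.0266) had a 95% interval of -3.16 to -0.25. Among skeletal muscle genes Actn3, a protein of fast fibres, was lower in RelB-/- thymus (difference -2.23, SE 0.16, limma adjusted p = 0.00057), at 4.65 to 4.81 against 6.70 to 7.26. The list of skeletal muscle genes averaged -0.47, -0.31 and 0.24 relative to the mean of all arrays in RelB-/- thymus, against 0.21, 0.31, 0.044 and -0.018 in RelB+/- thymus, over 8 measured genes. Its summed signal over 15 genes with a probe ran from 944.6 to 1578 in RelB-/- thymus and from 1020 to 1319 in RelB+/- thymus. Myh1 and Myh4 were detected on no array. The average and the sum include Mb, which was high on the arrays with heart muscle transcripts. The level of Mb was 4.60, 5.08 and 9.42 in RelB-/- thymus, against 4.44, 7.60, 4.63 and 4.37 in RelB+/- thymus. An average without Mb was not computed. The groups did not overlap for 4 of the 8 measured genes, against 13.6% of all genes. Of these, Actn3, Tnni2 and Pvalb were lower in RelB-/- thymus and Atp2a1 was higher. The part of muscle transcripts in the level of Car3 was not tested.

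**Figure D2:**
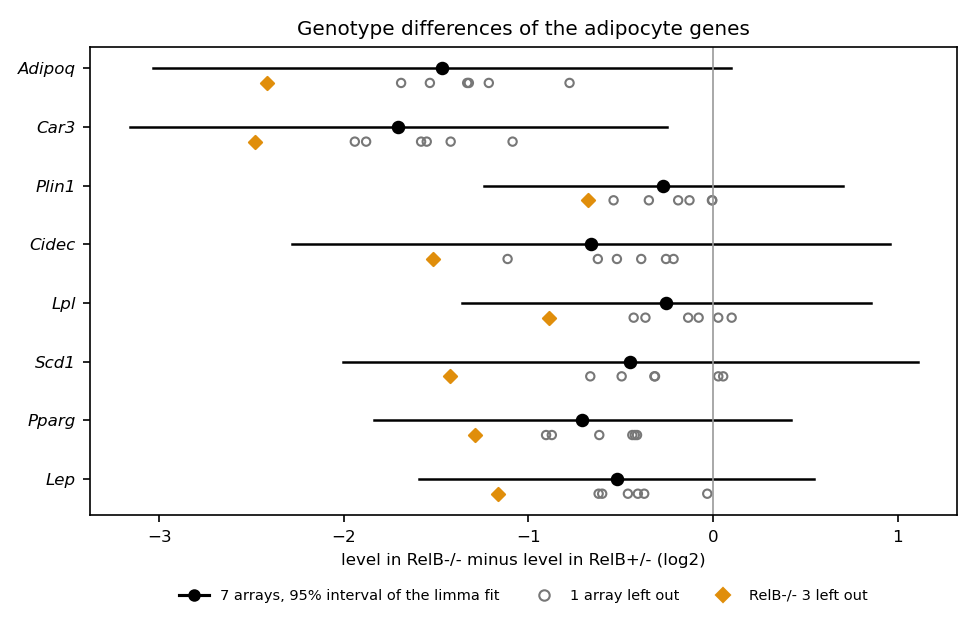
Difference in level, RelB-/- minus RelB+/- on the log2 scale, for the 8 adipocyte genes. Black points and lines give the limma fit on 7 arrays with its 95% interval, open circles the fit with 1 array left out, and orange diamonds the fit without RelB-/- 3, which lies lowest for each gene (Adipoq -2.42, against -1.47 on 7 arrays).

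The size of these differences depended on single mice. Without RelB-/- 3 the median difference of the 8 genes was -1.36, and 7 of 8 passed an unadjusted p under 0.05, where 14.5% of all genes passed. Adipoq was then called (-2.42, SE 0.37, limma adjusted p = 0.0423), where 0.669% of all genes were called, and the other 7 were not. Without RelB-/- 1 the median was -0.12 with 6 of 8 negative, and without RelB-/- 2 it was -0.31 with 6 of 8 negative. RelB-/- 2 was also the array with Xist. Leaving out single RelB+/- arrays gave medians between -0.78 and -0.42. Each time 0 of the 8 adipocyte genes were called, where 0.491% to 0.763% of all genes were called.

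RelB-/- 3 and RelB+/- 2, the arrays with heart muscle transcripts, were also the arrays highest in adipocyte genes within their genotypes when all 8 genes were averaged. Nppa, the atrial natriuretic peptide, was at 4.37, 4.52 and 12.60 in RelB-/- thymus, against 5.02, 9.98, 4.68 and 4.47 in RelB+/- thymus. RelB+/- 4, with Nppa at 4.47, had the highest level of Adipoq (11.03, against 11.02 on RelB-/- 3 and 11.01 on RelB+/- 2). RelB-/- 3 was the highest array for 4 of the 8 genes and RelB+/- 2 for 3. Averaged over the 8 genes these 2 arrays stood at 1.02 and 0.85, and RelB+/- 4 at 0.57. The part of tissue taken along with heart muscle in the adipocyte levels was not tested. With both heart arrays left out, 0 of 8 adipocyte genes were called, where 0.334% of all genes were called, and 7 of 8 passed an unadjusted p under 0.05, where 13.4% did. The median difference was then -1.17, with Adipoq at -2.28 (SE 0.38, limma adjusted p = 0.0806) from 2 RelB-/- and 3 RelB+/- mice. The mean of the heart list, taken over its 3 tested genes Nppa, Myl4 and Csrp3, was also used as a covariate. Car3 was then called (-2.07, SE 0.34, limma adjusted p = 0.0466), where 0.742% of all genes were called.

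The spread between mice of 1 genotype was large for all 8 genes. The residual SD of the fit, which measures that spread, ran from 0.70 for Plin1 to 1.19 for Cidec, against a median of 0.25 over all 9569 genes. This placed each of the 8 genes between the 96.1 and 99.1 percentiles of all genes. Over the 7 arrays the range of a gene's level was 3.80 for Car3, 3.29 for Adipoq and 2.96 for Scd1, and 1.60 for the dim probe of Plin1. Plin1 lay near the floor of the array on several mice, which narrows its range. The RelB-/- mice were the more dispersed group in each gene, with SDs from 0.72 to 1.70 in RelB-/- thymus and from 0.31 to 0.95 in RelB+/- thymus, though with 3 and 4 mice these SDs are imprecise and their difference was not tested.

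**Figure D3:**
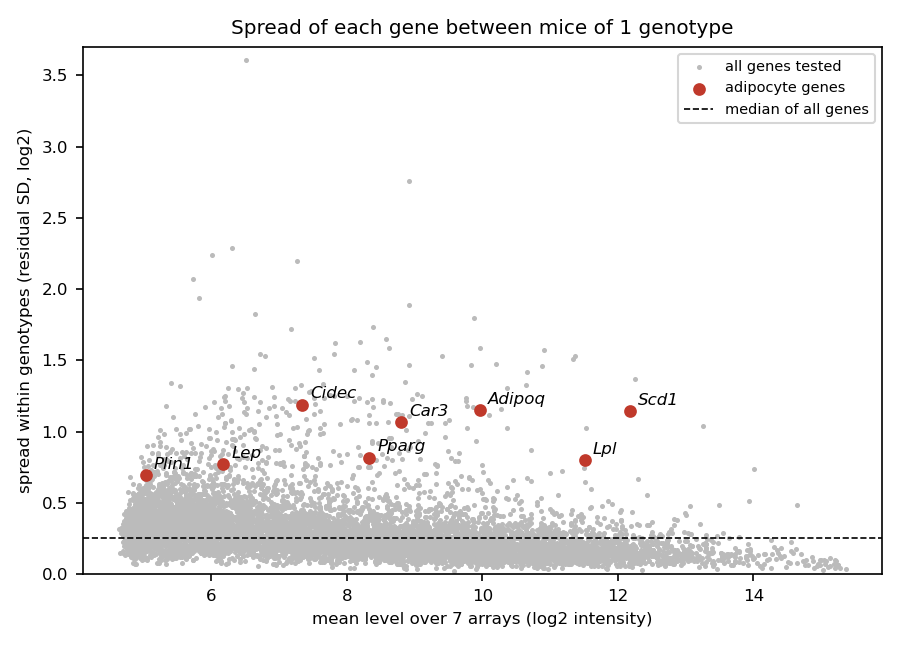
Residual SD within genotypes (log2) against mean level (log2 intensity) for all 9569 genes in grey and the 8 adipocyte genes in red, with the median of all genes as a dashed line. The adipocyte genes lie between 0.70 and 1.19, above the median of 0.25.

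The adipocyte genes varied together from mouse to mouse. Averaged over the 8 genes relative to each gene's mean, the arrays stood at -1.34, -0.98 and 1.02 in RelB-/- thymus, against -0.34, 0.85, 0.21 and 0.57 in RelB+/- thymus. The 28 pairs of genes had Pearson's r between 0.69 and 0.97 over the 7 arrays, with a median of 0.87. Spearman's rho lay between 0.54 and 0.96, with a median of 0.86. By exact permutation tests (2-sided, over all orders of the arrays, Benjamini-Hochberg adjustment over the 28 pairs), 22 pairs passed an adjusted p of 0.05 by Pearson's r and 15 by Spearman's rho. Over all 45778096 pairs of tested genes the median r was 0.006, and 7.27% of pairs had an r at or above the lowest of the adipocyte pairs.

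The closest pair was Lpl and Scd1 (r = 0.97, rho = 0.93, exact permutation p = 0.00079 and 0.0067, adjusted p = 0.0111 and 0.0270, n = 7), and r was 0.96 without RelB-/- 3 and RelB+/- 2, the arrays farthest from the median of Lpl. Adipoq and Lep followed each other similarly (r = 0.95, rho = 0.86, exact permutation p = 0.0020 and 0.0238, adjusted p = 0.0122 and 0.0444, n = 7), with r of 0.80 without RelB-/- 1 and RelB-/- 2, the arrays farthest from the median of Adipoq. With the genotype means removed, deviations pooled over both genotypes gave r from 0.69 to 0.98 with a median of 0.88. The RelB-/- mice, the more dispersed group, weigh most in these values. The relations were not examined in each genotype by itself. Car3 took part in the weakest pairs. With Adipoq it had r of 0.90 but rho of 0.54 (exact permutation p = 0.0095 and 0.236, adjusted p = 0.0191 and 0.236, n = 7), and without RelB-/- 1 and RelB-/- 2 its r with the other 7 genes lay between 0.071 and 0.47. The relation of Car3 to the other adipocyte genes thus rested on those 2 mice. Among the 21 pairs without Car3, r with the 2 farthest arrays left out lay between 0.56 and 0.98.

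**Figure D4:**
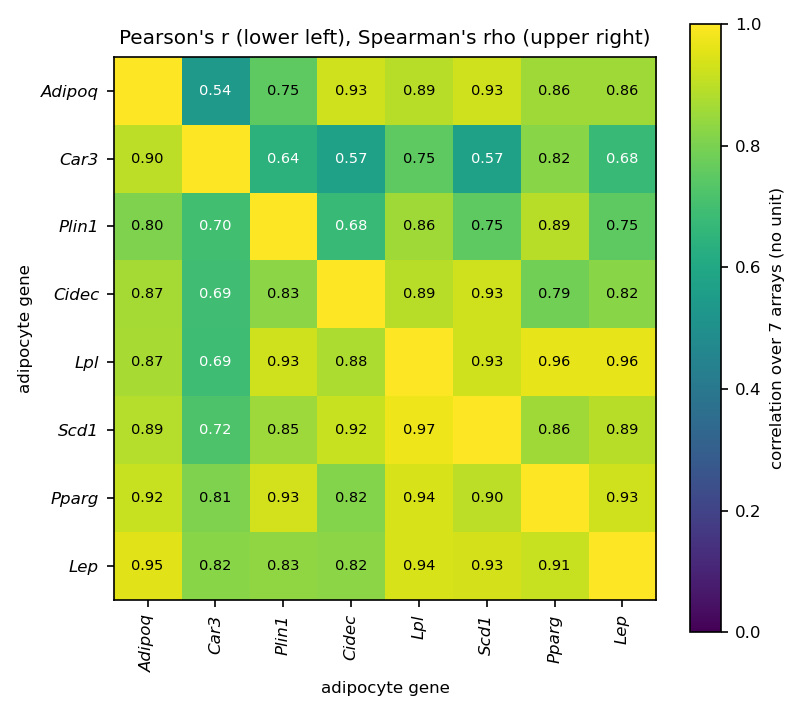
Correlation of levels over the 7 arrays between each pair of the 8 adipocyte genes, Pearson's r below the diagonal and Spearman's rho above it, colour running from 0 to 1. Lighter cells are higher values. The darkest cells are of Car3 (r from 0.69 to 0.90), and Lpl with Scd1 is the closest pair (r = 0.97).

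Of 2850 other genes whose level ranged over at least 1 log2 unit, 107 had r of 0.9 or more with the mean of the adipocyte genes over the 7 arrays, and 9 had r of -0.9 or less. The 12 most alike had r from 0.98 to 1.00, and 10 of them had a gene symbol. Thrsp, a nuclear protein tied to lipid synthesis, led them (r = 0.997) at 8.72, 8.997 and 12.35 in RelB-/- thymus, against 10.08, 11.84, 11.06 and 11.61 in RelB+/- thymus. Its order of the 7 mice was that of the mean of the adipocyte genes (rho = 1). Plin4, a perilipin of nascent lipid droplets, followed (r = 0.992) at 5.76, 6.12 and 9.07 in RelB-/- thymus, against 7.53, 8.89, 7.87 and 8.45 in RelB+/- thymus. Next came Apoc1, an apolipoprotein, and Cdo1, which breaks down cysteine (r = 0.992 and 0.991). Ctsh, a lysosomal protease, and Car5b, a mitochondrial carbonic anhydrase, had r of 0.988 and 0.986. Eci1 and Etfb of mitochondrial fatty acid oxidation had r of 0.986 and 0.981. Adig, a small protein of adipocytes, and Pcx, pyruvate carboxylase, had r of 0.985 and 0.984. None of these 10 was called between the genotypes, with differences from -1.51 (Adig, SE 0.87, limma adjusted p = 0.483) to -0.28 (Etfb). Since they were picked as the highest among 2850, no test goes with these correlations.

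Brown adipocyte genes were also spread widely between mice. Of 12 such genes with a probe 8 were tested, with a median difference of -0.56. Of these 0 were called (0.773% of all genes) and 0 passed an unadjusted p under 0.05 (13.2% of all genes). Ucp1, the uncoupling protein that marks brown fat, was chosen after its values were seen. It was detected on all 7 arrays, at 6.42, 5.50 and 9.69 in RelB-/- thymus, against 7.94, 9.15, 7.19 and 8.74 in RelB+/- thymus. Cidea, a lipid droplet protein of brown fat, was at 8.01, 7.09 and 11.999 in RelB-/- thymus, against 9.59, 11.61, 9.91 and 10.90 in RelB+/- thymus (difference -1.47, SE 1.06, limma adjusted p = 0.571). Cox8b, a respiratory chain subunit of brown fat and muscle, differed by -1.31 (SE 0.91, limma adjusted p = 0.551). The arrays ranked as for the adipocyte genes at the extremes, with RelB-/- 3 highest and RelB-/- 1 and RelB-/- 2 lowest. RelB+/- 3, which stood at 0.21 by the adipocyte genes, stood at -0.64 by the brown adipocyte genes. Cox8b and Pdk4 are among the listed genes that are also made in heart muscle. By the mean of the list, RelB-/- 3 (1.78) and RelB+/- 2 (0.95), the arrays with heart transcripts, were the highest of their genotypes. The part of heart muscle in these levels was not tested. Prdm16, Dio2 and Ucp3 were detected on no array.

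**Figure D5:**
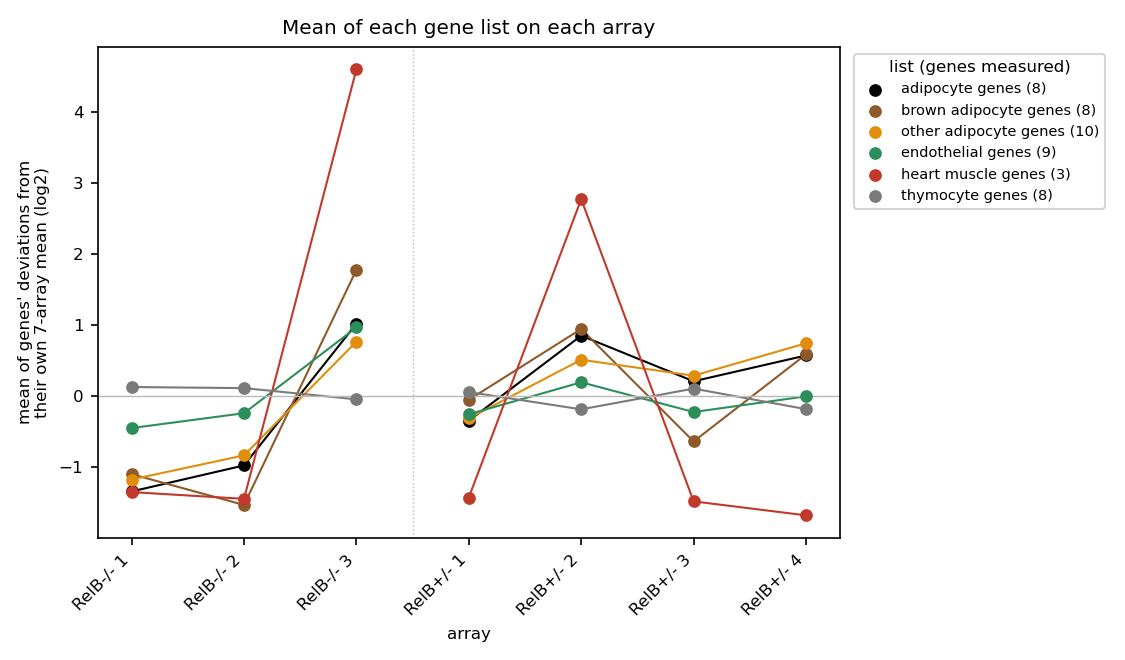
Mean of each gene list on each array, as the average of the genes' deviations from their own 7-array means (log2), RelB-/- arrays at the left and RelB+/- arrays at the right, with the number of genes measured in the legend. The adipocyte, other adipocyte and brown adipocyte lists are lowest on RelB-/- 1 and RelB-/- 2 and high on RelB-/- 3, the heart list peaks on RelB-/- 3 (4.61) and RelB+/- 2 (2.78), and the thymocyte list stays between -0.18 and 0.13.

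Other genes of adipocyte identity had 10 of 19 members with a probe tested. Of these 0 were called, where 0.773% of all genes were, and the median difference was -0.68. An unadjusted p under 0.05 was passed by 3, all of them lower in RelB-/- thymus. Among all genes 13.2% passed in either direction and 6.3% with a lower level. Apoe, an apolipoprotein made by fat cells and macrophages, had a difference of -0.84 (SE 0.20, limma adjusted p = 0.150) without overlap of the groups, at 9.68, 9.88 and 10.26 in RelB-/- thymus, against 10.55, 10.55, 11.05 and 10.97 in RelB+/- thymus. RelB-/- 3 was below the RelB+/- mice for this gene, whereas it was the highest array for Cidec, Lpl, Scd1 and Lep. Sncg, gamma-synuclein, had a difference of -0.81 (SE 0.23, limma adjusted p = 0.223). The probe of Fabp4, the abundant fatty acid binding protein of fat cells, was chosen after its values were seen and was detected on 0 of 7 arrays. Rbp4, Nnat, Nrip1, Irs1 and Insr were also detected on none.

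Lipid droplet and lipolysis genes had 14 of 16 tested, 0 called (0.773% of all genes) and 0 at an unadjusted p under 0.05 (13.2% of all genes), with a median of -0.060. The smallest p-values belonged to Hilpda (0.37, SE 0.18, limma adjusted p = 0.421) and Plin2 (0.30, SE 0.17, limma adjusted p = 0.467). Both had the higher mean in RelB-/- thymus, and Plin2 coats droplets in many cell types. Genes of fatty acid and triglyceride synthesis had 17 of 21 tested, 0 called and 0 at an unadjusted p under 0.05, with a median of -0.22. Dgat2, which completes triglyceride synthesis, was at 6.90, 7.71 and 10.71 in RelB-/- thymus, against 8.63, 10.77, 10.05 and 11.09 in RelB+/- thymus (difference -1.70, SE 0.91, limma adjusted p = 0.458). Elovl5, a fatty acid elongase, had a difference of 0.26 (SE 0.14, limma adjusted p = 0.448). The probe of Fasn, fatty acid synthase, was detected on no array. Partners of lipoprotein lipase and fatty acid uptake genes had 10 of 13 tested, 0 called, 0 at an unadjusted p under 0.05 and a median of -0.22. Their smallest p-values were those of Slc27a4, a fatty acid transporter (0.35, SE 0.20, limma adjusted p = 0.482), and Fabp5, a fatty acid binding protein of epithelia and macrophages (-0.40, SE 0.24, limma adjusted p = 0.494).

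The partners and receptors of the adipocyte factors were also measured. PPAR and RXR factors and their coregulators had 7 of 10 tested, 0 called (0.773% of all genes) and 1 at an unadjusted p under 0.05 (13.2% of all genes), with a median of 0.23. Rxrg, a partner receptor of PPAR-gamma, was at 5.13, 5.22 and 5.17 in RelB-/- thymus, against 4.95, 4.62, 4.73 and 4.95 in RelB+/- thymus (difference 0.36, SE 0.14, limma adjusted p = 0.346). Ncoa1, a coactivator of nuclear receptors, had a difference of 0.25 (SE 0.15, limma adjusted p = 0.499). Receptors of adiponectin, leptin, resistin and complement fragments had 5 of 8 tested, 0 called, 0 at an unadjusted p under 0.05 and a median of 0.085. Among them Tlr4 and Cap1, proposed receptors of resistin, had differences of 0.21 (SE 0.14, limma adjusted p = 0.547) and 0.47 (SE 0.37, limma adjusted p = 0.606). Lepr, the leptin receptor, was detected on no array. Of 3 alternative complement genes with a probe 0 were tested. The other carbonic anhydrases had 6 of 9 tested, 0 called, 1 at an unadjusted p under 0.05 and a median of -0.033. Car14, a membrane-bound member, had a difference of 0.61 (SE 0.22, limma adjusted p = 0.317) and Car5b one of -0.84 (SE 0.51, limma adjusted p = 0.500).

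Cell types that accompany fat were set beside the adipocyte genes. Genes of adipocyte progenitors and mesenchyme had 8 of 12 tested, 0 called (0.773% of all genes), 1 at an unadjusted p under 0.05 (13.2% of all genes) and a median of -0.11. Dpp4, also made by T cells, had a difference of 0.41 (SE 0.15, limma adjusted p = 0.307), and Dcn, a matrix proteoglycan, one of -0.64 (SE 0.41, limma adjusted p = 0.518). Their mean by array was -0.57, -0.29 and 0.55 in RelB-/- thymus, against -0.40, -0.086, -0.14 and 0.94 in RelB+/- thymus, so RelB+/- 4 was the highest. Endothelial genes had 9 of 10 tested, 0 called, 0 at an unadjusted p under 0.05 and a median of 0.093, with means of -0.45, -0.24 and 0.97 in RelB-/- thymus, against -0.25, 0.20, -0.22 and -0.0015 in RelB+/- thymus. Their summed signal ran from 1007 to 2348 in RelB-/- thymus and from 1051 to 1520 in RelB+/- thymus. Vwf, the clotting factor of endothelium, reached 8.95 on RelB-/- 3, against 6.98 on RelB+/- 2 as the next highest array. Macrophage genes had 10 of 10 tested, 0 called, 2 at an unadjusted p under 0.05 in opposite directions and a median of 0.025, and their means stayed between -0.053 and 0.15 in RelB-/- thymus and between -0.13 and 0.17 in RelB+/- thymus. Of 7 liver genes with a probe 1 was tested, and Alb was detected on no array. The parts of these cell types in the adipocyte levels were not tested.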

How the data were processed

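Probe intensity values on a linear scale, not normalized between arrays, were deposited together with detection p-values per probe, per the file headers. The submitters' processing notes name GenomeStudio, with its version and settings not given in the sources used here. The authors also deposited processed values that behave as log2 values for bright probes, whose transformation is unknown and which served as an alternative. Signals were background-corrected by normexp from the detection p-values (offset 16), quantile-normalized and log2-transformed with limma 3.58.1 in R 4.3.3. The offset shrinks folds of dim genes. The detection filter kept 12465 probes, and the brightest kept probe stood for each of 9569 genes. Of these, 725 were probes without a symbol, each counted as a gene of its own. Symbols came from the platform annotation (23976 probes with 1 symbol, 0 with several, 1719 with none), and all 10 gene names are in RefSeq's gene table. Genotypes were compared with lmFit and eBayes, adjusted by Benjamini-Hochberg over all genes, and the script was tested on simulated data. The genes and lists were chosen with earlier results of these data known. Named genes were the adipocyte genes, Relb, called list members or else the 2 with the smallest p-values, the 2 of widest range in other cell types, and the 12 most alike genes. Genes outside this rule carry a remark or serve to state detection. Replicates were separate mice. Their number limits the precision. Alternatives covered background, offset, normalization, the authors' values, filters, probe choice, variance model, weights, a replicate block, chip position, heart transcripts and each array left out. Promoter windows came from RefSeq. Figures were drawn with matplotlib 3.10.9.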

Additional observations from a re-analysis of the deposited data

Results flagged for a closer look

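The 150 genes of the lists and of the most alike genes were examined in the 4 RelB+/- mice. The limit used would flag about 1 in 20 independent genes by chance, but several of these genes varied together. Of the 150 genes, 7 had 1 mouse far from the other 3, and 0 of these were among the 8 adipocyte genes. On RelB+/- 2 the flagged genes were the muscle genes Nppa (9.98, next 5.02), Myl4 (12.15, next 7.56) and Mb (7.60, next 4.63), which were high, and the endothelial receptor Kdr (4.48, next 5.02), which was low. Srebf1, a regulator of lipid synthesis, was low on RelB+/- 1 (6.41, next 7.002). Mylpf, a myosin light chain, was low on RelB+/- 4 (8.74, next 9.16), and Ptcra, a thymocyte receptor chain, was high on RelB+/- 3 (7.61, next 6.72).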

How the results depend on the processing

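Of 174 values of the 8 adipocyte genes under the alternatives, 168 kept their sign and stayed uncalled, 4 turned positive and 2 were called. The 4 were Lpl without RelB-/- 1 (0.10) or RelB-/- 2 (0.028) and Scd1 without RelB-/- 1 (0.028) or RelB-/- 2 (0.055), within ranges of -0.89 to 0.10 for Lpl and -1.43 to 0.055 for Scd1 over single arrays left out. The 2 were Adipoq without RelB-/- 3 (adjusted p = 0.0423, against 0.0806 without both heart arrays and up to 0.742 elsewhere) and Car3 with the heart list as covariate, which gave 1 called adipocyte gene (adjusted p = 0.0466, up to 0.645 elsewhere). Single arrays left out gave 0 to 1 called adipocyte genes and 40 to 73 called genes in all (34 to 65 lower, 4 to 8 higher), against 74 (64 lower, 10 higher) on 7 arrays. The total was 25 (23 lower, 2 higher) with the authors' processed values, 15 (12 and 3) with detection on all 7 arrays, which tested 7772 genes and 6 adipocyte genes, and 32 (26 and 6) without both heart arrays. Without background correction and without a detection filter 6 were higher. Same-numbered mice had correlations of 0.32, -0.18 and -0.20 between their deviations from the genotype means. Differently numbered mice had correlations from -0.40 to 0.32. These are too few values to tell whether the replicate numbers pair the mice. With a replicate block 24 genes were called (23 lower, 1 higher), 0 of them adipocyte genes, with a median adipocyte difference of -0.43. The median adipocyte difference was -0.32 with the authors' values, -0.39 without background correction and -0.80 with array weights. The median r between adipocyte genes stayed between 0.81 and 0.91 under its alternatives. Dim probes such as Plin1, Lep and Retn limit what their folds can show.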

Other observations

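The remaining lists described other tissue in the same samples. Among all genes 0.669% were called lower and 0.105% higher, and 13.2% passed an unadjusted p under 0.05. Parathyroid and thyroid genes had 3 of 6 tested, 0 called and 1 at an unadjusted p under 0.05. Pth, parathyroid hormone, was at 6.27, 5.32 and 4.28 in RelB-/- thymus, against 6.89, 7.48, 8.21 and 4.97 in RelB+/- thymus, and Chga, a granule protein of endocrine cells, had a difference of -1.36 (SE 0.54, limma adjusted p = 0.348). These arrays ranked differently from the adipocyte genes, with RelB-/- 3 lowest for Pth and RelB+/- 4 lowest of its group. Mature B cell genes had 4 of 6 tested, 1 lower and 0 higher, namely Fcmr (-2.29, SE 0.30, limma adjusted p = 0.0121), the Fc receptor for IgM. Thymocyte genes had 8 of 9 tested and thymic epithelial genes 6 of 7, with 0 called in each and medians of 0.13 and -0.19. Skeletal muscle genes had 8 of 15 tested, 1 lower and 0 higher, and heart muscle genes 3 of 16 tested with 0 called. Summed thymocyte signal ran from 42610 to 44670 in RelB-/- thymus and from 37170 to 40370 in RelB+/- thymus.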
